A study of Homo sapiens with 12 samples.

Results

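The question was which genes N87 cells still needed, or could lose, during 14 days of lapatinib. For this the 2 lapatinib libraries were set against the 2 baseline libraries of the same line, 4 of the 12 samples of the series. These samples were chosen by their labels alone, and every sgRNA of the library was used. N87 is an established gastric cancer line with amplified HER2, and lapatinib inhibits the kinases of EGFR and HER2. The cells carried Cas9 and the GeCKO v2 sgRNA library from the vector lentiCRISPR v2, in half-libraries A and B. They were infected at a multiplicity of 0.3 and selected with 0.75 µg/ml puromycin for 7 days, when the baseline cells were harvested. The rest were cultured for 14 days with 0.5 µM lapatinib or with its vehicle, DMSO. The 2 vehicle libraries are used here only to show where the lapatinib libraries differ from drug-free growth. Each condition has 2 libraries of the same line. The study describes its replicates as separately infected, while the labels do not say so. The p-values of sgRNAs measure only the spread between these libraries. Those of genes measure whether the sgRNAs of a gene rank together among all tested sgRNAs.

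A pooled knockout screen reads gene need from the abundance of the sgRNAs. A cell that loses a gene it needs divides less or dies, and the sgRNA that cut the gene becomes rarer in the pool. A cell that loses a gene that limits growth, or that carries the action of the drug, leaves more descendants. Compared with the starting pool, both ordinary growth requirements and requirements that hold only under drug appear as rarer sgRNAs. The library targets most genes with 6 sgRNAs, and agreement among them separates a change of the gene from a change of a single clone or sgRNA. Guides that match no gene, and guides against olfactory receptor genes, which serve smell, show how far sgRNAs move where no needed gene is lost.

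The libraries held 33743599 and 29658838 counts at baseline and 26675049 and 24570332 counts with lapatinib, against 26981640 and 25142593 with vehicle. The pool was far less even after lapatinib. sgRNAs with under 10 counts made up 0.284% and 0.444% of the table in the baseline pool, 0.618% and 0.899% under vehicle, and 11.05% and 5.04% under lapatinib. After every library was thinned to 24570332 counts these shares were 0.489% and 0.585%, 0.720% and 0.943%, and 11.7% and 5.04%. Lapatinib replicate 1 was thus the less even of the pair, and the groups did not overlap. An exact permutation test of 2 libraries against 2 cannot give a p below 0.3333, so these shares carry no test.

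Control guides also spread widely. The 1000 control guides, which are listed in both half-libraries, had a median log2 change of 0.39 with an SD of 1.04 over guides from baseline to lapatinib, and 0.10 with an SD of 0.14 from baseline to vehicle. For sgRNAs to genes the median was -0.06 with an SD of 1.47 with lapatinib, and 0.02 with an SD of 0.29 with vehicle. The 2256 sgRNAs against olfactory receptors had a median of 0.05 with an SD of 1.32 and lay below the control guides. With lapatinib, the changes of control guides in replicate pair 1 and in pair 2 were correlated across guides at r = 0.929. With vehicle this r was 0.0161. Guides that match no gene thus moved alike in both pairs, so agreement of the pairs is weak evidence on a gene. Whether the pools shared cells before treatment cannot be told from the labels, and the part of this shared movement in the p-values and gene results was not tested.

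**Figure D1:**
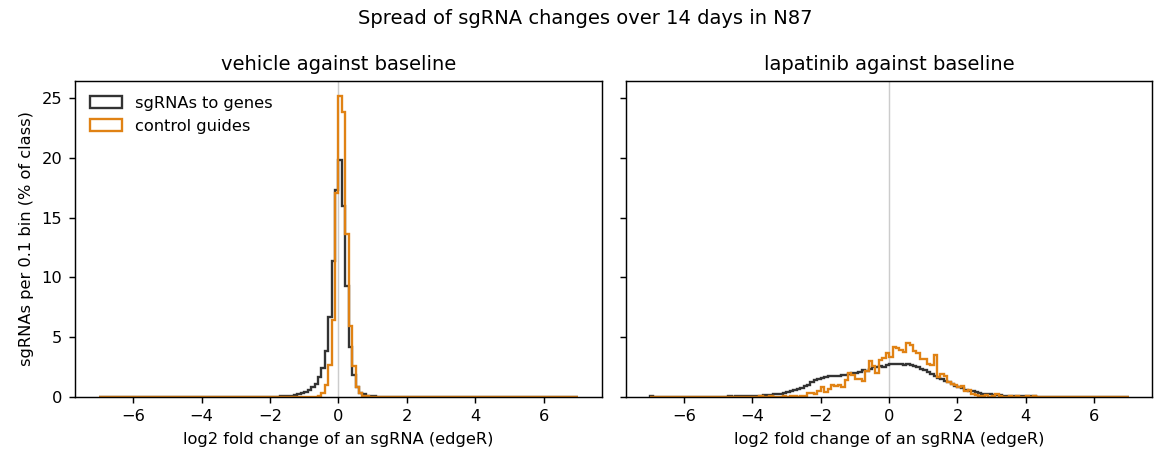
Distribution of edgeR log2 fold changes of single sgRNAs in N87, as the percentage of sgRNAs per bin, with sgRNAs to genes in black and control guides in orange. The left panel shows vehicle against baseline and the right panel lapatinib against baseline. The SDs of control guides in the text, 0.14 with vehicle and 1.04 with lapatinib, are not those of the plotted values. They come from normalized counts with both entries of a guide summed.

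At the level of sgRNAs the comparison of lapatinib with baseline was saturated. By edgeR's quasi-likelihood test, 41190 of 122513 sgRNAs (33.6%) were lower and 41255 (33.7%) were higher at an adjusted p under 0.05. Among control entries 59.3% passed, and among sgRNAs to genes 67.4%. Each control guide has an entry in both half-libraries, and the changes of its entries correlated at r = 0.979, so the entries of a guide are not independent. From baseline to vehicle 49 of 122948 sgRNAs (0.0399%) were lower and 0 (0%) were higher by the same test, while 9337 sgRNAs to genes had an unadjusted p under 0.05. With most control entries past the threshold, a called sgRNA says little of its gene. Counts of passing sgRNAs given for genes below are descriptive and are to be read beside these shares. Genes were scored by whether several of their sgRNAs ranked together, by robust rank aggregation of the one-sided edgeR p-values.

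Under that score 28 of 20893 genes (0.134%) were lower with lapatinib than at baseline and 0 (0%) were higher. At an unadjusted gene p under 0.05 there were 1092 lower and 1071 higher genes. From baseline to vehicle 489 of 20894 genes (2.34%) were lower and 12 (0.0574%) were higher. The 28 genes include enzymes of the mitochondrion, vesicle tethering and glycosylation factors of the Golgi, chromatin and transcription factors, and single genes of glycolysis, myristate attachment, the nuclear envelope and the actin cytoskeleton. Over all genes, the median of the gene medians was -0.10, with the 5th and 95th percentiles at -1.49 and 1.01, and sgRNAs of one gene typically differed with an SD of 1.31. With vehicle these values were 0.02, -0.38, 0.18 and 0.20. Each gene value is the median of its sgRNAs' log2 fold changes from edgeR, given with the SD over sgRNAs. Library counts of a gene are the median normalized count of its sgRNAs. Adjusted p-values of genes are from rank aggregation of edgeR p-values, adjusted by Benjamini-Hochberg over all genes tested in a direction.

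The calls depended on how sgRNAs were ranked and on single libraries. Without lapatinib replicate 1 there were 35 lower genes, and without lapatinib replicate 2 there were 2. Without baseline replicate 1 or 2 there were 11 and 8. When sgRNAs were ranked by fold change in place of p, 33 genes were lower and 7 of the 28 were among them. SYS1 and TRAPPC1 passed under all 12 alternatives, GPX4 under 11, GAPDH and NUP62 under 9.

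SYS1, a gene of vesicle tethering at the Golgi, had the lowest p among the lower genes. SYS1 is a Golgi membrane protein that anchors ARFRP1, a small GTPase through which golgins are brought to the trans-Golgi. Its normalized counts were 27.8 and 51.7 under lapatinib, from 359.8 and 409 before treatment, and 281 and 193 in vehicle. Both lapatinib libraries lay below the other 4, with the vehicle libraries in between. The median log2 change of SYS1 (chromosome 20, 43990577 to 44005438 on GRCh37) was -2.89 ± 1.31 over 6 sgRNAs, with an adjusted p of 8.78e-08. All 6 of its sgRNAs were lower in both replicate pairs, and 5 passed alone, where 33.6% of all tested sgRNAs passed as lower. From baseline to vehicle the median of SYS1 was -0.65 ± 0.24 (adjusted p 0.000369). ARFRP1 itself fell by less and less evenly. Its counts were 209.8 and 199 before treatment, 142 and 115 after vehicle and 145 and 95.1 after lapatinib, and the range of the lapatinib libraries overlapped that of the vehicle libraries. The median of ARFRP1 was -1.60 ± 2.00 with an adjusted p of 0.00695, against -0.52 with vehicle. Its half-library A sgRNAs had a median of 0.08 and those of half-library B -3.54.

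TRAPPC1 encodes a small subunit of the TRAPP complexes, which activate Rab GTPases in traffic between the endoplasmic reticulum and the Golgi. Its counts were 199.6 and 194 in the baseline pool, 139 and 98.9 under vehicle and 21.4 and 25.5 under lapatinib, with no overlap between the groups. The median of TRAPPC1 was -3.33 ± 2.61 with an adjusted p of 0.00206. The sgRNAs of TRAPPC1 were split, and 4 passed as lower and 2 as higher. TRAPPC5, another TRAPP subunit, was called at 0.0412 with a median of only -0.03 ± 1.74. Of its 6 sgRNAs, 2 passed as lower and 2 as higher, so that call came from part of its guides, and its median was 0.01 when DESeq2 gave the fold changes. SNF8, of the ESCRT-II complex that sorts receptors at endosomes, had -1.64 ± 2.21 (adjusted p 0.0325), again with 4 sgRNAs lower and 2 higher.

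Among the lower genes, 4 encode proteins of the mitochondrion. PTPMT1, a phosphatase of cardiolipin synthesis, had counts of 67.1 and 69.6 under lapatinib, from 224 and 218 before treatment, and 190.1 and 164 in vehicle. The lapatinib libraries were the lowest, and all 6 sgRNAs passed as lower, as did 33.6% of all tested sgRNAs. The median of PTPMT1 was -1.74 ± 0.84 with an adjusted p of 0.00281, and with vehicle it was -0.30 (adjusted p 0.0878). SOD2, the manganese superoxide dismutase of the matrix, also had 6 of 6 sgRNAs lower. Its counts were 37.8 and 28.3 under lapatinib, from 166 and 144 before treatment, and 110.5 and 77.1 in vehicle, and the 3 groups did not overlap. The median of SOD2 was -2.46 ± 1.31 (adjusted p 0.00334) with lapatinib, and -0.63 (adjusted p 0.000237) with vehicle. PMPCA, a subunit of the protease that removes mitochondrial import signals, had counts of 142 and 127 in the baseline pool, 92.1 and 64.99 under vehicle and 14.3 and 21.4 under lapatinib. Its 6 sgRNAs all passed as lower, and its median was -2.85 ± 0.86 (adjusted p 0.00490). LONP1, the quality-control protease of the matrix, had a median of -3.07 ± 1.76 (adjusted p 0.0308).

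GPX4 reduces lipid peroxides in membranes, and cells without it can die by ferroptosis. Its counts were 183 and 185 in the baseline pool, 170.4 and 183 under vehicle and 16.4 and 26.2 under lapatinib. Vehicle and baseline libraries of GPX4 overlapped, while both lapatinib libraries were far below them. The median of GPX4 (chromosome 19, 1103981 to 1106790) was -3.02 ± 0.63 over 5 tested sgRNAs, with an adjusted p of 0.00206, and the SD over sgRNAs was lower than for any other of the 15 genes of lowest p. The untested sgRNA had too few counts, with normalized counts of 5.67 and 7.26 at baseline and 0 in both lapatinib libraries. With vehicle the median of GPX4 was -0.48 ± 0.28 with an adjusted p of 0.901.

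GAPDH, HYOU1 and ADSS belong to metabolism and protein folding. GAPDH, a glycolytic enzyme, had counts of 280.4 and 281 before treatment, 156 and 77.6 after vehicle and 28.5 and 44.8 after lapatinib, with the lapatinib libraries below the vehicle libraries. The median of GAPDH was -2.81 ± 1.92 (adjusted p 0.00457). Of its sgRNAs 5 passed as lower and 1 as higher, and the latter had 326 and 382 normalized counts at baseline and 1151 and 1013 with lapatinib. HYOU1, a chaperone of the endoplasmic reticulum, had counts of 256 and 222 before treatment, 182 and 105 after vehicle and 19.98 and 35.1 after lapatinib, with no overlap. Its median was -3.13 ± 1.93 (adjusted p 0.00457). ADSS, now named ADSS2, an enzyme of adenosine nucleotide synthesis, had a median of -2.69 ± 2.94 (adjusted p 0.0308), and -0.13 (adjusted p 0.557) with vehicle.

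Sugar metabolism for glycans gave 3 more genes. MPI makes mannose 6-phosphate and stood at -1.97 ± 1.63 with an adjusted p of 0.0459. ALG2 adds mannose to the lipid-linked precursor of N-glycans and had -0.82 ± 1.87 (adjusted p 0.0193). B3GALT6 builds the linker on which heparan sulfate chains are made, and its counts were 311 and 320.3 before treatment, 305 and 309.9 after vehicle and 74.9 and 126 after lapatinib. Its vehicle libraries were just under the baseline libraries, and both lapatinib libraries were far below. The median of B3GALT6 was -1.63 ± 0.94 (adjusted p 0.0113). With vehicle it was 0.005 (adjusted p 1). In the direct comparison of lapatinib with vehicle its median was -1.56 (adjusted p 0.125), which did not pass.

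Chromatin and transcription gave 5 of the 28 genes. ASH2L, a core subunit of histone H3 lysine methyltransferase complexes, had counts of 38.5 and 42.7 under lapatinib, from 209.8 and 165 before treatment, and 132 and 76.1 in vehicle. The 3 groups did not overlap, and the median of ASH2L was -2.25 ± 1.31 (adjusted p 0.00334) with lapatinib and -1.10 (adjusted p 4.38e-06) with vehicle. GTF3C4, of the RNA polymerase III factor TFIIIC, had 6 of 6 sgRNAs lower. Its counts were 171 and 146 before treatment, 96.2 and 48.5 after vehicle and 24.97 and 36.5 after lapatinib, and its median was -2.01 ± 1.05 (adjusted p 0.00695). HCFC1, a co-regulator of the cell cycle, had -2.87 ± 1.58 (adjusted p 0.0237) (-0.58 with vehicle). INO80C, of the INO80 remodelling complex, had -1.99 ± 1.42 (adjusted p 0.0226) (-0.69 with vehicle). CTCF, which shapes chromatin loops, had -1.67 ± 2.21 (adjusted p 0.0139), but 2 of its sgRNAs passed as higher and 4 as lower. Lower as well was RPL31, of the large ribosomal subunit, with -1.61 ± 0.81 (adjusted p 0.0325), and 6 of 6 sgRNAs passed.

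Of the others, CYFIP1 had the lowest median of the 28 apart from hsa-mir-1184-3. CYFIP1 encodes a subunit of the WAVE complex that drives branched actin. Its counts were 168 and 153 before treatment, 136 and 90.7 after vehicle and 14.98 and 19.98 after lapatinib, with no overlap of the lapatinib libraries with the rest. The median of CYFIP1 was -3.40 ± 1.43 (adjusted p 0.00457), against -0.55 (adjusted p 0.118) with vehicle. NMT1, which attaches myristate to Src family kinases, ARF GTPases and other proteins, had counts of 202 and 249 in the baseline pool, 173 and 131 under vehicle and 49.2 and 46.2 under lapatinib. The lapatinib libraries of NMT1 were the lowest, and its median was -2.36 ± 2.18 (adjusted p 0.00695). NUP62, of the nuclear pore, had counts of 193 and 176 before treatment, 179 and 139.7 after vehicle and 57.1 and 53.7 after lapatinib, below both other groups. The median of NUP62 was -2.15 ± 2.28 (adjusted p 0.00490), and with vehicle -0.27 (adjusted p 0.619). LMNA, which encodes the lamins A and C, had a median of -2.11 ± 2.12 (adjusted p 0.00879). Opposing sgRNAs were frequent. Of ADSS 4 passed as lower and 2 as higher, 5 and 1 did so of HYOU1, LONP1, NMT1 and LMNA, and 4 and 1 of NUP62 and MPI. In 11 of the 28 genes every sgRNA was lower in both replicate pairs. LMNA, B3GALT6, CTCF, ALG2, INO80C, hsa-mir-1184-3, HCFC1, ADSS, LONP1, SNF8 and MPI were named after their values were seen.

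The remaining call was a microRNA gene, hsa-mir-1184-3, one of 3 gene copies on chromosome X that encode the same mature RNA. Their shared sequence is shown because it means that these copies cannot be told apart by product. RefSeq on GRCh38.p14 places the mature RNA at chrX:155457577-155457599 on the plus strand for hsa-mir-1184-3, at chrX:154887376-154887398 on the minus strand for hsa-mir-1184-1 and at chrX:155383116-155383138 on the minus strand for hsa-mir-1184-2. The seed, bases 2 to 8, is in capitals.
hsa-miR-1184: cCUGCAGCgacuugauggcuucc
The counts of hsa-mir-1184-3 were 5.71 and 18.6 under lapatinib, from 124 and 106 before treatment, and 84.1 and 60.1 in vehicle. Its 4 sgRNAs had a median of -3.49 ± 1.84 (adjusted p 0.0227). The 4 sgRNAs listed under hsa-mir-1184-1 had -3.16 ± 1.10 (adjusted p 0.149), and those under hsa-mir-1184-2 had -2.99 ± 0.90 (adjusted p 0.974). All 3 medians were under the 5th percentile of genes, and counting may split or share reads among near-identical copies, so the single call is uncertain. The sequences of the sgRNAs were not used here, and how many sites each cuts was not tested.

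**Figure D2:**
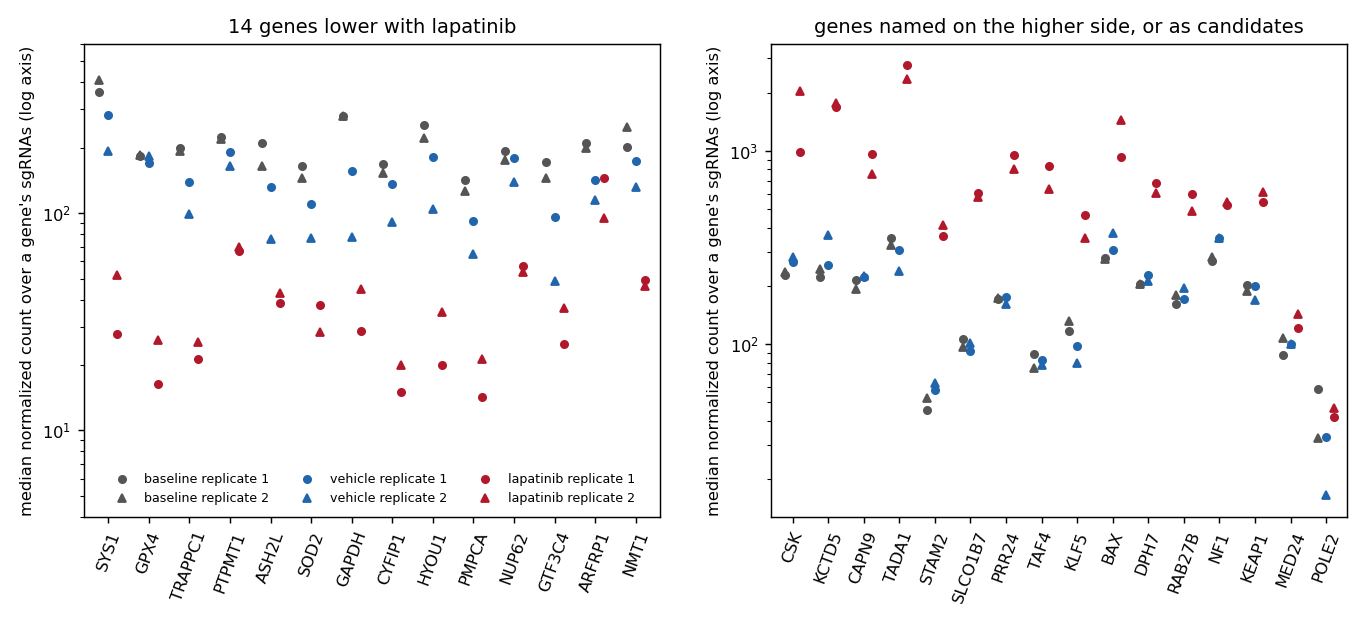
Median normalized count over the sgRNAs of a gene (log axis) in the 6 N87 libraries, circles for replicate 1 and triangles for replicate 2. The left panel shows 14 of the 15 lower genes of lowest p, and the other is not shown. In all 14 both lapatinib libraries (red) lie below the baseline libraries (grey), and they overlap the vehicle libraries (blue) only for ARFRP1. The genes were picked by their p in these same libraries, so a position below baseline follows largely from that choice. The right panel shows genes of the higher side and the study's candidates, of which none passed.

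The direct comparison of lapatinib with vehicle after the same 14 days tests where the drug changed the loss. Of 20885 genes, 3 (0.0144%) were lower with lapatinib than with vehicle and 0 (0%) were higher, while 1081 and 1062 had an unadjusted gene p under 0.05. SYS1 had a median of -2.37 ± 1.12 and GPX4 of -2.99 ± 0.63, each with an adjusted p of 0.0222. The third, RAI14, which encodes an ankyrin repeat protein at actin structures, had -2.001 ± 1.41 (adjusted p 0.0222). The counts of RAI14 were 207 and 206 in the baseline pool, 204 and 232 under vehicle and 35.7 and 75.8 under lapatinib, so that vehicle libraries were at the level of baseline and both lapatinib libraries were lower. From baseline, RAI14 had -1.94 ± 1.36 (adjusted p 0.189), which did not pass, and 0.16 with vehicle. All 3 calls were lost without vehicle replicate 1, without lapatinib replicate 2 and when sgRNAs were ranked by fold change. Without vehicle replicate 2 only SYS1 passed. RAI14 was also lost with total counts, control guide factors and at least 200 counts, and GPX4 with DESeq2 and with the replicate block. For the other genes of the 28 a difference between drug and vehicle did not pass this test.

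The 10 genes of lowest p in drug-free growth had medians below 0 with lapatinib too, as had 11562 of all 20893 genes tested. These 10, from baseline to vehicle, were PPP4C, ARL2, GINS3, ASH2L, GUK1, STIP1, SLC7A6OS, GTF3C4, FNTB and YARS. Comparisons with vehicle and with lapatinib share the baseline libraries, so values are given side by side. PPP4C, a protein phosphatase subunit, had -0.99 ± 0.31 with vehicle (adjusted p 4.38e-06) and -0.79 ± 1.13 with lapatinib (adjusted p 0.941). The counts of PPP4C were 205 and 171 before treatment, 108 and 75.7 after vehicle and 137 and 97.2 after lapatinib, and the lapatinib and vehicle libraries overlapped. ARL2, a GTPase of tubulin folding, had -0.87 with vehicle and -0.80 ± 2.71 with lapatinib, with 3 sgRNAs lower and 3 higher. STIP1, a co-chaperone that links HSP70 to HSP90, had -0.90 ± 0.28 with vehicle and -0.78 ± 0.41 with lapatinib. GUK1, guanylate kinase, had -0.97 and -1.77 ± 1.55, and GINS3, of the replicative helicase, had -0.79 and -1.26 ± 1.22. FNTB, of protein farnesyltransferase, had -0.80 and -1.51 ± 1.25. SLC7A6OS had -0.86 and -1.43 ± 1.40, and YARS, the tyrosyl-tRNA synthetase now named YARS1, had -0.99 and -2.34 ± 1.58. Among these 8 genes apart from ASH2L and GTF3C4, adjusted p-values with lapatinib ran from 0.179 to 1.

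**Figure D3:**
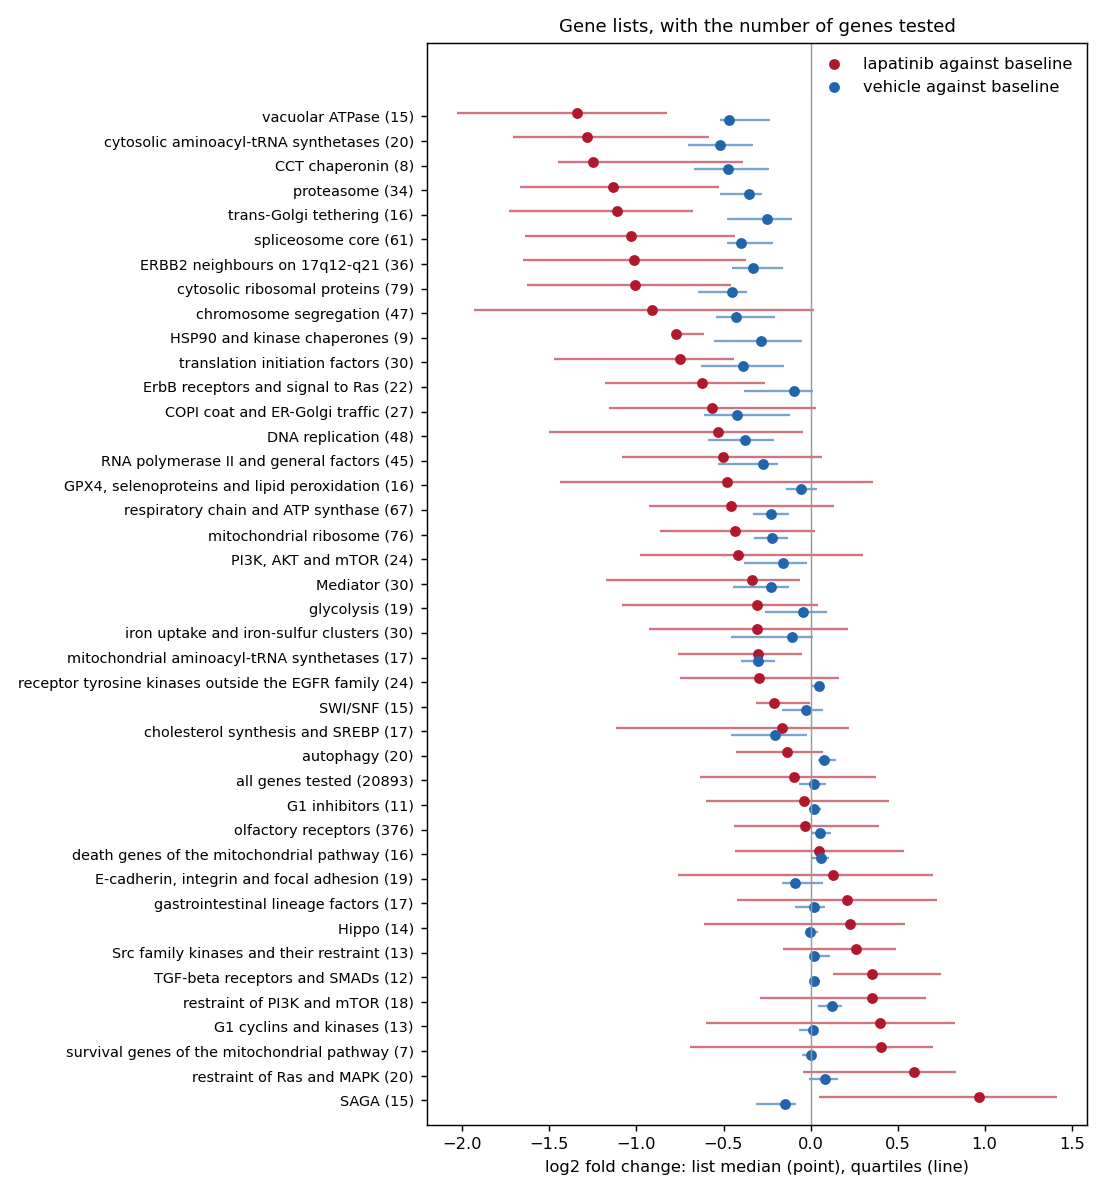
Median log2 fold change of the genes in each list (points) with the quartiles over genes (lines), for lapatinib against baseline in red and vehicle against baseline in blue, with the number of genes in parentheses. Lists such as ribosomal proteins, at -1.01 and -0.45, and the proteasome, at -1.14 and -0.36, lie to the left in both comparisons and further left with lapatinib. Medians of all genes also spread more widely with lapatinib, with 5th percentiles of -1.49 and -0.38. With lapatinib SAGA lies furthest to the right, at 0.96.

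Core machinery had low medians as whole lists, and more of its members were called with vehicle than with lapatinib. Over all genes, 0.134% were called lower with lapatinib and 2.34% with vehicle, and 11562 of 20893 had a median below 0 with lapatinib. List medians shift with the scaling, and total counts and TMM factors from control guides moved the median of all genes from -0.10 to -0.63 and -0.47. The 5th percentile of the medians of all genes was -1.49 with lapatinib and -0.38 with vehicle. Among 79 cytosolic ribosomal protein genes, the median was -1.01 with lapatinib and -0.45 with vehicle, beside -0.10 and 0.02 over all genes tested. Their called lower members were 1 with lapatinib and 24 with vehicle. Relative to control guides, the median level of ribosomal protein sgRNAs was -0.51 and -0.73 in the baseline pool on the log2 scale, -1.01 and -1.39 under vehicle and -1.90 and -1.68 under lapatinib. These sgRNAs were thus already low at baseline, and the 3 groups did not overlap. Over sgRNAs of all genes this level was -0.02 and -0.07 at baseline and -0.10 and -0.16 under vehicle. It was -0.55 and -0.41 under lapatinib, again without overlap of the groups. Among 34 proteasome genes, 31 had a median below 0 with lapatinib. The list median of the proteasome was -1.14 with lapatinib and -0.36 with vehicle, with 0 and 4 genes called lower. PSMD7, of the proteasome lid, was lowest at -2.78 and PSMC2, an ATPase of the base, highest at 0.48. The 61 spliceosome genes had -1.03 and -0.40, with 0 and 13 called lower, and SNRPF, of the Sm ring, was lowest at -3.65.

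tRNA synthetases and the proton pump gave the lowest list medians. The 20 cytosolic aminoacyl-tRNA synthetases, which charge tRNAs, had -1.29 with lapatinib and -0.52 with vehicle. Of these 0 were called lower with lapatinib and 12 with vehicle. Over all genes 0.134% and 2.34% were called lower, so 0 calls with lapatinib in lists of this size are near that share. The isoleucyl enzyme IARS was lowest at -2.68 ± 2.17, and RARS and QARS were the highest, at 0.93 and 1.08. The 15 genes of the vacuolar ATPase, which acidifies lysosomes, had -1.34 and -0.47, with 0 and 6 called lower. ATP6V0C, its membrane ring subunit, had the lowest median of all genes with 6 tested sgRNAs, at -3.77 ± 3.15, with an adjusted p of 0.252. The CCT chaperonin, which folds actin and tubulin, had -1.25 and -0.48 over 8 genes. DNA replication had -0.53 and -0.37 over 48 genes, with 0 and 11 called lower. Chromosome segregation had -0.91 and -0.43 over 47 genes, with 0 and 10. Lists of the mitochondrion were nearer to the median of all genes, with -0.45 and -0.22 for the respiratory chain and ATP synthase and -0.44 and -0.22 for the mitochondrial ribosome. Olfactory receptors, 376 genes, had -0.03 and 0.06, with 0 and 3 called lower. Relative to the median of the control guides, values with lapatinib were -1.40 for cytosolic ribosomal proteins, -0.84 for the respiratory chain, -0.42 for olfactory receptors and -0.49 for all genes.

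Trans-Golgi tethering held SYS1 and its partners. Of its 16 genes 15 had a median below 0 with lapatinib, against 11562 of 20893 over all genes, and SYS1 and ARFRP1 were called. Called lower were 2 of the 16 with lapatinib and 6 with vehicle, beside 0.134% and 2.34% over all genes. The list was chosen with earlier results of these data known, so counts that include SYS1 and ARFRP1 are not independent evidence. The list median was -1.11 with lapatinib and -0.25 with vehicle. NAA30, the acetyltransferase that modifies the ARFRP1 terminus, had -2.31 ± 1.73 with an adjusted p of 0.0731. RAB6A, a GTPase of Golgi traffic, had -1.83 ± 1.31 (adjusted p 0.0936), and NAA35, the partner of NAA30, was the only member above 0, at 1.18 ± 0.90. In the list of COPI and ER-Golgi traffic, TRAPPC8, TRAPPC3 and TRAPPC4 had medians of -2.92, -2.57 and -2.33, none of which passed, while TRAPPC11 had 1.03. TRAPPC8 passed under 5 of the 12 alternatives, among them DESeq2 and ranking by fold change. The median of these 27 genes was -0.56 with lapatinib and -0.42 with vehicle, with 2 and 6 called lower.

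Of the genes that work with GPX4, none but GPX4 itself was called with lapatinib, where 0.134% of all genes were called lower. The 16 genes of selenoprotein synthesis and lipid peroxidation had a list median of -0.48 with lapatinib and -0.05 with vehicle. EEFSEC and SEPSECS, which deliver and make selenocysteine tRNA, had -2.23 ± 1.45 and -2.13 ± 1.18 with an adjusted p of 1 each. SLC3A2, the heavy chain of the cystine importer, had -2.12 ± 0.71 (adjusted p 0.260). AIFM2 and DHODH, which lower lipid peroxides by other routes, had 1.01 and 1.03. ACSL4, an enzyme that promotes ferroptosis, had 0.30.

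Signalling downstream of the drug's targets had no called member in either direction with lapatinib. Over all genes 0.134% were called lower and 0% higher, so lists of this size are near that share. With vehicle 2 genes were called lower in the ErbB list and 2 in the PI3K list, beside 2.34% over all genes. The list of ErbB receptors and their signal to Ras had a median of -0.63 over 22 genes, against -0.10 with vehicle. Of these 22 genes 19 were below 0 with lapatinib, against 11562 of 20893 over all genes. PTPN11, the phosphatase SHP2 that relays receptor signals to Ras, had -3.55 ± 1.96 with an adjusted p of 0.410, against -0.98 (adjusted p 0.0124) with vehicle. When sgRNAs were ranked by fold change, PTPN11 was among the 33 lower genes (adjusted p 0.00349). GRB7 and GRB2, adaptors of the receptors, had -2.47 ± 2.49 and -2.12 ± 2.45. At the other end ERBB3, the partner of HER2, had 0.59. For PI3K, AKT and mTOR the list median was -0.42 over 24 genes. RPTOR, which brings substrates to mTOR, was lowest at -1.95 ± 1.16, and AKT1 and PDPK1 were highest at 0.95 ± 0.86 and 1.09 ± 1.97. Genes next to ERBB2 on chromosome 17 were low as a list, with -1.02 over 36 genes with lapatinib and -0.33 with vehicle, and 0 and 3 called. MIEN1 and PGAP3 had -3.08 ± 1.69 and -2.90 ± 1.57, and passed only when ranked by fold change. Relative to control guides, sgRNAs of these neighbours were at -0.72 and -0.95 in the baseline pool, -1.07 and -1.41 under vehicle and -2.16 and -1.76 under lapatinib. Over sgRNAs of all genes these levels were -0.02 and -0.07, -0.10 and -0.16, and -0.55 and -0.41. The number of copies cut at this locus was not measured here.

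No gene passed on the higher side, and the values there are described without a call. The direction of a list on this side depends on scaling. SAGA, a histone acetylating coactivator, had the highest list median, at 0.96 over 15 genes with lapatinib, 0.42 with total counts and 0.59 with control guide factors. With vehicle it was -0.15. TADA1, SUPT20H and USP22 had 2.47 ± 1.72, 1.90 and 1.79, while TRRAP and ENY2 had -1.31 and -1.15. Restraint of Ras and MAPK had 0.60 over 20 genes, 0.06 with total counts and 0.23 with control guide factors. RASA2, a GTPase activator for Ras, was highest there at 2.16 ± 1.45, while RASA3 had -1.42. Restraint of PI3K and mTOR had 0.35 and TGF-beta receptors and SMADs 0.35, and both medians turned to -0.19 with total counts and -0.02 with control guide factors. The 13 G1 cyclin and kinase genes had 0.40, as had the 7 survival genes of the mitochondrial pathway. Control guides had a median of 0.39.

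CSK, the kinase that holds Src family kinases inactive, had the highest median of the 18188 genes with 6 tested sgRNAs. Its counts were 229 and 236 in the baseline pool, 265 and 281 under vehicle and 983 and 2046 under lapatinib. Both lapatinib libraries were above all others, and replicate 2 was well above replicate 1. The median of CSK (chromosome 15, 75074421 to 75095538) was 2.89 ± 0.56 over 6 sgRNAs, all of which passed as higher, and the adjusted p of the gene was 1. Its replicate pairs had medians of 2.09 and 3.44. Ranked by fold change, CSK was the only higher gene, with an adjusted p of 0.000699. TADA1 had counts of 2760.2 and 2343 under lapatinib, from 354 and 325 before treatment, and 306 and 238 in vehicle, with the lapatinib libraries close together. Its median was 2.47 ± 1.72 (adjusted p 0.431). KCTD5, an adaptor of the CUL3 ubiquitin ligase, had the lowest p on this side. The counts of KCTD5 were 222 and 246 before treatment, 257 and 366 after vehicle and 1685 and 1761 after lapatinib, and its median was 2.63 ± 1.57 (adjusted p 0.384), with 5 sgRNAs higher and 1 lower. KCTD5 and TADA1 passed on DESeq2 p-values and without either lapatinib replicate, TADA1 also with total counts, and CSK without lapatinib replicate 1. PRR24, now named INAFM1, had counts of 948 and 806 under lapatinib, from 172 and 173 before treatment, and 176 and 161 in vehicle. All 6 sgRNAs of PRR24 passed as higher, and its median was 2.06 ± 1.24 (adjusted p 0.384). The 5 genes of lowest p with both pairs higher were KCTD5, RAB27B, SLCO1B7, CAPN9 and TAF4, each with an adjusted p of 0.384. TAF4, of TFIID, had 2.01 ± 2.50, and CAPN9, a calpain of the stomach, had 2.53 ± 2.12.

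Other candidates of the study had smaller or less even values. DPH7, of diphthamide synthesis, had sgRNAs close together, at 1.48 ± 0.24, and all 6 passed as higher, but the gene had an adjusted p of 1. Its counts were 206 and 205 before treatment, 228 and 213 after vehicle and 678 and 604 after lapatinib. KLF5, an epithelial transcription factor, had 1.93 ± 1.06 (adjusted p 0.737), and BAX, which opens the mitochondrial outer membrane in apoptosis, 1.73 ± 1.15 (adjusted p 0.946). NF1, a Ras GTPase activator, had 0.80 ± 1.64, and KEAP1, the adaptor that targets NRF2 for degradation, had 0.68 ± 1.37. STAM2, of receptor sorting, had 2.21 ± 3.03, MED24, of Mediator, -0.22 ± 1.16, and POLE2, of DNA polymerase epsilon, -0.39 ± 3.63 over 5 sgRNAs. All 6 sgRNAs were higher for 289 genes and lower for 485 of 18188 with lapatinib, and for 757 and 853 of 18563 with vehicle.

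**Figure D4:**
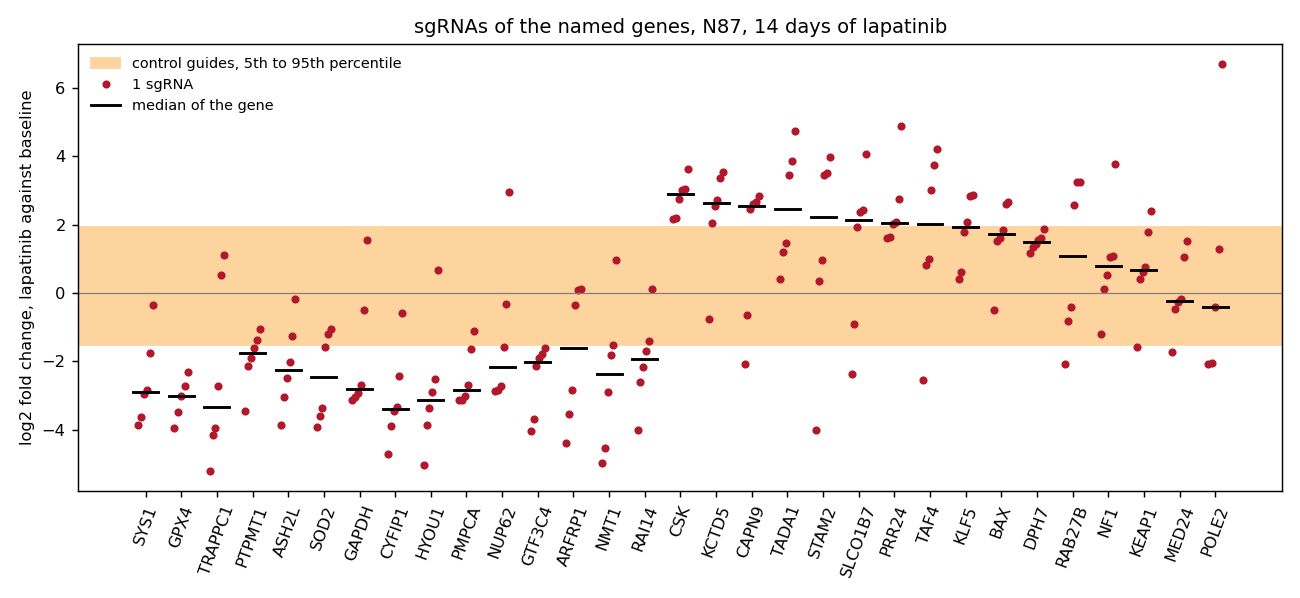
Log2 fold change from baseline to lapatinib of each sgRNA (points) with the gene median (bar), for 14 of the 15 lower genes of lowest p, RAI14, and the genes of the higher side and candidates. The band is the 5th to 95th percentile of the control guides, from -1.53 to 1.93, and only CSK has all 6 sgRNAs above it.

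Single sgRNAs moved much further than genes. From baseline, 6 sgRNAs were over 4-fold higher and 30 over 4-fold lower with vehicle, and 7331 and 12165 with lapatinib. The lapatinib counts include 88 and 22 control entries, where each control guide has an entry in both half-libraries. Over 20-fold higher were 145 sgRNAs of 145 genes, so no gene had more than 1 of them. Over 20-fold lower were 168 sgRNAs, which belong to 162 genes, 6 of these with 2 or more. Of sgRNAs with a mean normalized baseline count of at least 50, the largest rises were from LAMTOR4, NETO1, P4HA1, ZSWIM1 and IDUA, at 80.2-, 79.0-, 51.7-, 49.3- and 49.0-fold. The LAMTOR4 sgRNA had 59.9 ± 5.47 (SD, n = 2 libraries) normalized counts at baseline and 4880 ± 1469 (SD, n = 2) with lapatinib, while the median of that gene was -0.31 over its sgRNAs. The medians of IDUA, ZSWIM1 and NETO1, at 2.298, 1.33 and 1.28, were past the 95th percentile of all genes, and those of LAMTOR4 and P4HA1 were below 0, P4HA1 at -0.72. The 5 largest falls were to 0 counts in both lapatinib libraries. Against a floor of 3 counts per library, 4 of them were at least 22.4-fold lower for a TUBGCP4 sgRNA and at least 13.4-, 13.4- and 13.1-fold lower for sgRNAs of ATP6V1G1, GGT1 and hsa-mir-422a. GGT1 belongs to a family of near-identical copies, so the gene behind its sgRNA is uncertain. The median of TUBGCP4, a tubulin nucleation factor, was -3.06 over its sgRNAs.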

How the data were processed

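The deposited table holds raw counts of 123411 sgRNA entries, 2000 of them for 1000 control guides, in 12 samples. The authors trimmed reads with a custom script, aligned them to the library with Bowtie and merged the raw counts. The submitters' processing notes name Bowtie2 2.3.2, FastQC 0.11.5 and MAGeCK 0.5.6. The 2 lapatinib and 2 baseline N87 libraries were compared with edgeR 4.0.16 (R 4.3.3; TMM factors, quasi-likelihood test, sgRNAs with at least 40 counts over the 4 libraries). One-sided p-values were ranked over all tested sgRNAs, and ranks under 0.05 were combined per gene by robust rank aggregation for genes with at least 2 tested sgRNAs, with Benjamini-Hochberg adjustment in each direction and a threshold of 0.05. The other 2 comparisons were fitted alike. Normalized counts are medians of ratios over the 6 N87 libraries. The code was tested on simulated data. Named genes were the 15 of lowest p among lower genes, genes called against vehicle, the 5 of lowest p with both pairs higher, the 10 of lowest p with vehicle, candidates of the study and list members. Alternatives were other scalings, filters, rankings, DESeq2 1.42.0 (with Python 3.11.15 for the aggregation), a replicate block and leaving out each library. The members and lists were chosen with earlier results of these data known. Sequences of the sgRNAs were not used here. Gene positions are those of GRCh37. Some items among the genes and sgRNAs this rule picks are not reported here.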

Additional observations from a re-analysis of the deposited data

Results flagged for a closer look

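SYS1, GPX4 and RAI14 stand out because their change over 14 days differed between the lapatinib and the vehicle arm in the direct test. The median log2 difference of lapatinib from vehicle was -2.37 for SYS1, -2.99 for GPX4 and -2.001 for RAI14, and the adjusted p by edgeR and rank aggregation was 0.0222 for all 3, over 20885 genes. All 5 tested sgRNAs of GPX4 and 6 of 6 of SYS1 were lower with lapatinib than at baseline in both replicate pairs. An sgRNA of RAI14 had 0.33 in pair 1 and -0.01 in pair 2. The score calls genes whose sgRNAs rank together, so such agreement is no further evidence. No group had enough libraries to test one of them as an outlier.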

How the results depend on the processing

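Against baseline, the 28 lower genes became 11 with total counts, 15 with control guide factors, 18 with at least 200 counts and 11 with the replicate block, and 2 to 35 when a library was left out. The 0 higher genes became 1 with total counts, 2 with DESeq2, 1 when ranked by fold change and 0 to 3 when a library was left out. The sgRNAs higher became 25485 with total counts, and those lower ranged from 20014 to 51199 without a library. Without baseline replicate 1 or 2 the lower sgRNAs were 20014 and 20027. Without lapatinib replicate 2 there were 2 lower genes, and without baseline replicate 1 or 2 there were 11 and 8. The median of TRAPPC5 turned to 0.006614 with DESeq2, and ran from -0.0778705 to 0.016054 without a library. For vehicle, lower genes were 841 with all ranks and 177 to 517 without a library (177 without vehicle replicate 2), and higher genes 4 when ranked by fold change and 0 to 25 without a library (25 without vehicle replicate 1, 0 without vehicle replicate 2, 7 without baseline replicate 1). Between lapatinib and vehicle, lower genes were 0 to 5 without a library (0 without lapatinib replicate 2 or vehicle replicate 1, 1 without vehicle replicate 2, 5 without lapatinib replicate 1). Higher genes there were 2 with DESeq2, 2 when ranked by fold change and 0 to 3 without a library. The causes were not tested.

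Replicate numbers were not taken as pairs, since replicate differences correlated across sgRNAs at only 0.0314 between lapatinib and baseline, 0.0593 between lapatinib and vehicle and 0.238 between vehicle and baseline. With the replicate block 538 genes were lower and 16 higher with vehicle, and 2 were lower between lapatinib and vehicle. Where a library was left out, the lone library was assumed to vary like the other group. Depth limits sgRNAs near 0 counts in lapatinib replicate 1, where 2044 had none.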
